A study of Mus musculus and Homo sapiens with 24 samples.

Results

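HepG2, a human hepatoma line that still makes many liver products, was given cobalt(II) chloride (CoCl2) and β-estradiol together, and its RNA was compared with that of control HepG2 cells. The members of this comparison are genes. Of 28278 human genes listed by symbol, 16201 had a count above 5 in at least 1 of 6 libraries and entered the test, and 12077 did not, 7983 of them with no count in any of the 6. The CoCl2-Estrogen group held 3 libraries of cells treated for 4 h with 50 μM CoCl2 and 25 nM β-estradiol, and the Ctrl group held 3 libraries for which the labels name neither agent nor vehicle. All 6 were HepG2 cells that attached overnight in EMEM with fetal bovine serum and were washed. The study's cell culture methods then give a night in serum-free medium, a step the labels do not mention. The study asked how estrogen and low oxygen, alone and together, act on the liver's expression of protein S, an anticoagulant. Its 24 RNA-Seq samples were 12 mouse livers and 12 HepG2 libraries, which also included 3 libraries with CoCl2 alone and 3 labelled Estrogen, with β-estradiol alone, at the same doses and time. The labels do not say whether replicates A, B and C were separate cultures, so the p-values below measure the spread between these libraries, which may be technical. HepG2 is a single tumour-derived line that divides in culture, which limits it as a model of resting hepatocytes.

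Cobalt ions block the prolyl hydroxylases that mark the α subunits of hypoxia-inducible factors (HIF) for destruction, so CoCl2 is used to imitate low oxygen. Stable HIF pairs with ARNT and turns on genes for glucose uptake, glycolysis, vessel growth and oxygen sensing. Estradiol acts through the nuclear receptors encoded by ESR1 and ESR2, which bind DNA, and through the membrane receptor encoded by GPER1, which signals rapidly. The liver makes most plasma proteins, among them clotting factors, their inhibitors and complement.

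Library totals ran from 16360154 to 20725246 counts in Ctrl and from 15066039 to 16866725 counts in CoCl2-Estrogen libraries. Levels are given as CPM, the counts of a gene scaled to a common library size with TMM, and are a share of the reads of a library, so fewer cells of a type and less RNA per cell cannot be told apart. Over genes averaging 1 CPM or more, the median coefficient of variation between the 3 libraries was 7.33% in Ctrl and 7.23% in CoCl2-Estrogen libraries. The 15 hepatocyte and hepatoma markers, from ALB and AFP to KRT8 and GPC3, all lay at 22.5 CPM or more in every library. Of 32 markers of endothelium, fibroblasts, blood and breast epithelium, 10 were listed at 0 in all 6 libraries and 15 passed the count filter. LYZ, lysozyme, carried most of the blood list (1215, 1261 and 1091 CPM in Ctrl and 1033, 834 and 953 CPM in CoCl2-Estrogen libraries), whose 8 genes summed to 1139 to 1419 CPM in Ctrl and 854 to 1125 CPM in CoCl2-Estrogen libraries. The 6 bile duct markers, which include SOX9, EPCAM and SPP1, summed to 1364 to 1526 and 999 to 1112 CPM, so both sums were lower in all CoCl2-Estrogen libraries and their part in the results was not tested. Ribosomal RNA genes took 1.11% to 1.63% of the counts in Ctrl and 0.963% to 1.34% in CoCl2-Estrogen libraries. The 7SL and 7SK family took 0.456% to 0.751% and 0.873% to 1.07%, higher in all CoCl2-Estrogen libraries, and its part in the results was not tested either.

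Below, levels are given for replicates A, B and C in that order, Ctrl first. A gene is called changed where the quasi-likelihood test of edgeR gave a p of at most 0.05 after Benjamini-Hochberg adjustment over all tested genes. By this rule 65.4% of all tested genes were called, 32.3% higher and 33.2% lower in CoCl2-Estrogen libraries, and the 2 groups did not overlap for 69.3% of genes. The median log2 fold change over all tested genes was -0.01, and it and the shares called are the background for every gene group below. Most changes were modest, with 1942 genes called higher and 2106 called lower by more than 2-fold, 739 and 612 by more than 4-fold, and 184 and 78 by more than 16-fold. Calls depended on the level: 19.5% of the 2968 genes under 1 CPM were called higher and 12.6% lower, against 49.7% and 30.5% of the 2482 genes at 100 CPM or more.

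**Figure D1:**
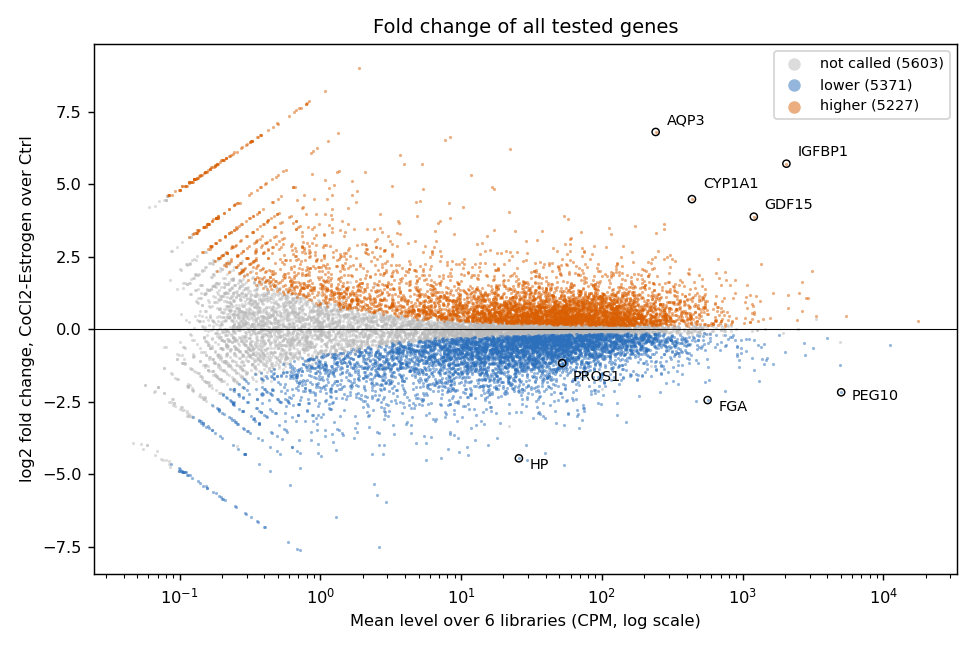
Log2 fold change of CoCl2-Estrogen over Ctrl libraries (vertical axis) against the mean level over the 6 libraries (horizontal axis, CPM, log scale) for the 16201 tested genes; orange points were called higher, blue points called lower and grey points not called. Calls lie on both sides from low to high levels, and the labelled genes AQP3, IGFBP1, GDF15, CYP1A1, PEG10, HP, FGA and PROS1 are described in the text.

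The largest rises were in genes of quite different roles. The ranking was by fold, over called genes that averaged 1 CPM or more and whose groups did not overlap, and 3 of the first 12 had a control level above a few counts. AQP3, a channel for water and glycerol, went from 4.94, 3.33 and 4.62 CPM in Ctrl to 488, 485 and 464 CPM in CoCl2-Estrogen libraries (log2 fold change 6.81, SE 0.11, adjusted p = 1.09e-14). TMEM156, a membrane protein of little known function, went from 0.637, 0.469 and 0.651 CPM to 42.1, 46.2 and 44.3 CPM (log2 fold change 6.24, SE 0.15, adjusted p = 3.76e-13). IGFBP1, a secreted carrier of insulin-like growth factors, went from 72.96, 69.2 and 87.5 CPM to 4096, 4157 and 3819.6 CPM (log2 fold change 5.72, SE 0.088, adjusted p = 1.09e-14). Separation of the groups was a condition of this ranking, so it is not a result for these genes. The other genes of the 12 started from a control level near 0. CYP1B1, a cytochrome P450 that hydroxylates estradiol, rose by 6.64 on the log2 scale (0.319, 0.141 and 0 CPM against 15.5, 15.5 and 18.4 CPM). RAMP1, a partner of the calcitonin receptor-like receptor, rose by 6.54 (0.159, 0.234 and 0.0592 against 14.2, 17.04 and 14.6 CPM), PTHLH, which encodes parathyroid hormone-related protein, by 5.71, and CAPN8, a calpain protease, by 5.71. MRC1, the mannose receptor known from macrophages, went from 0, 0.0469 and 0 CPM to 1.86, 2.62 and 2.26 CPM. Control levels of these last genes rest on a few counts a library, so their fold changes are rough while the treated levels are well measured.

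IGFBP1 also gained the largest share of reads. Shares of reads depend on transcript length as well as on the number of molecules. After it came DSP, the desmosome plaque protein desmoplakin (1234, 1290.0 and 1235 CPM in Ctrl and 4949.7, 4948 and 5161 CPM in CoCl2-Estrogen libraries), and FN1, fibronectin, which was the most abundant of the gaining genes and rose by 0.31 on the log2 scale (15763, 16282 and 15438 CPM in Ctrl and 19856, 19481 and 19432 CPM in CoCl2-Estrogen libraries). SLC38A2, a transporter of neutral amino acids, went from 1321, 1362 and 1231 CPM to 3943, 3871 and 4251 CPM. GDF15, a stress-induced secreted cytokine, went from 151, 141 and 165 CPM to 2334, 2279 and 2151 CPM. SPTBN1, a spectrin of the membrane skeleton, rose 2.14-fold, and the nuclear noncoding RNA MALAT1 2.37-fold. RN7SL2, a copy of the signal recognition particle RNA whose counting is uncertain because near-identical copies exist and whose family is named above as a larger share of the treated libraries, rose 2.10-fold.

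The 12 largest falls by the same ranking included liver products, a matrix gene and histones. HP, which encodes haptoglobin, fell from 45.4, 51.2 and 51.3 CPM to 2.00, 2.13 and 2.67 CPM (log2 fold change -4.44, SE 0.13, adjusted p = 2.27e-12). DGKK, a diacylglycerol kinase, fell from 100, 108 and 102 CPM to 3.93, 4.14 and 3.98 CPM (log2 fold change -4.68, SE 0.085, adjusted p = 4.29e-14). COL1A1, collagen type I, fell from 23.5, 20.02 and 20.4 CPM to 1.40, 0.669 and 1.17 CPM, and AS3MT, which methylates arsenic, from 11.04, 8.20 and 13.4 CPM to 0.732, 0.669 and 0 CPM. Here too, groups that did not overlap were a condition of the ranking. LSP1, an actin-binding protein named for its place in lymphocytes, went from 1.97, 2.203 and 1.60 CPM to 0.0666, 0.122 and 0.0686 CPM. Of the 8 fibroblast and stellate cell markers, 3 were listed at 0, COL1A1 was called lower, and PDGFRB and ACTA2 were not called. Their summed level was 85.4 to 88.4 CPM in Ctrl and 55.4 to 65.6 CPM in CoCl2-Estrogen libraries. SPARC, a secreted matrix protein, fell by 4.00 on the log2 scale. By share of reads the greatest losses were in PEG10, a retrotransposon-derived gene (8109, 8652 and 7879.9 CPM in Ctrl and 1851, 1719.7 and 1922 CPM in CoCl2-Estrogen libraries), APOB, the core protein of very low density lipoprotein (12969, 14377 and 12308 CPM in Ctrl and 9073, 8864 and 9465 CPM in CoCl2-Estrogen libraries), and ALB, albumin (6496, 7232 and 6791 CPM in Ctrl and 3018, 2911 and 2950.1 CPM in CoCl2-Estrogen libraries). Next came ACTB, TUBB, SERPINA1, PEG3 and TF, which kept 54.1%, 29.1%, 64.5%, 44.04% and 44.1% of their Ctrl level.

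Some genes were all but silent in 1 of the groups. Among called genes, 341 that were higher had 3 counts or fewer in each Ctrl library, 107 of them none at all, and 184 that were lower had 3 or fewer in each CoCl2-Estrogen library, 41 of them none. TINCR, a gene known for its role in epidermal differentiation, had 1, 3 and 2 counts in Ctrl and 105, 123 and 109 counts in CoCl2-Estrogen libraries, a ratio of 69.6 (exact 95% interval 31.6 to 191, counting error only). PELI2, a ubiquitin ligase of innate immune signalling, had no count in Ctrl and 59, 50 and 63 counts after treatment, so it was at least 23.6-fold higher, computed against 3 counts per library. HTR7, a serotonin receptor, had 3, 3 and 1 counts in Ctrl and 54, 60 and 49 after treatment. FOXD1, a forkhead transcription factor, had 2, 3 and 0 counts in Ctrl and 46, 55 and 50 after treatment. These genes were picked for 3 counts or fewer in every Ctrl library, which nearly fixes that the groups are separate. In the other direction, HAMP, the iron hormone hepcidin, had 87, 90 and 116 counts in Ctrl and 0, 0 and 1 after treatment, and CD248, endosialin, had 52, 58 and 38 in Ctrl and 1, 0 and 0 after treatment. SLC22A7, a liver uptake transporter of organic anions, had 84, 97 and 98 counts in Ctrl and 3, 1 and 0 after treatment, and ERP27, an endoplasmic reticulum protein, 83, 94 and 88 and 3, 1 and 1. The genes of this direction were picked for 3 counts or fewer in every treated library. GSTA1 behaved alike (127, 112 and 90 against 3, 0 and 1 counts), though reads can be split between it and its near-identical neighbour GSTA2.

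Genes of oxygen sensing were mostly higher. Of 13 tested HIF subunits, cofactors and sensors, 9 were called higher and 1 lower, with a median log2 fold change of 0.59. Over Ctrl, β-estradiol alone gave 8 of 13 higher and 1 lower (median 0.35), and CoCl2 alone 2 of 12 higher and 0 lower (median 0.05). Between CoCl2-Estrogen and Estrogen libraries 2 of 13 were higher and 0 lower, with a median of -0.11. Over all tested genes 68.9% were called with β-estradiol alone, 1.44% with CoCl2 alone and 17.0% between CoCl2-Estrogen and Estrogen libraries. The list's counts with β-estradiol alone and against Estrogen libraries were near those shares. HIF1A, the α subunit that CoCl2 stabilizes as a protein, was the gene called lower (388, 438 and 354 CPM in Ctrl and 290.0, 267 and 298 CPM in CoCl2-Estrogen libraries), and EPAS1, which encodes the α subunit HIF2α, was called higher (309, 319 and 303 CPM in Ctrl and 536, 533 and 541 CPM in CoCl2-Estrogen libraries). ARNT, the shared partner, was not called (log2 fold change -0.02, SE 0.066). EGLN3, an oxygen-sensing prolyl hydroxylase that HIF itself induces, went from 3.72, 3.00 and 2.78 CPM to 15.7, 15.3 and 14.4 CPM (log2 fold change 2.25, SE 0.14, adjusted p = 3.44e-09). EGLN1 and EGLN2, the other hydroxylases, rose by 0.59 and 0.51. The coactivators CREBBP and EP300 rose by 1.18 and 0.87 on the log2 scale.

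HIF targets outside glycolysis were mostly higher. Of 40 tested, 24 were called higher and 10 lower, with a median of 0.60. VEGFA, the growth factor of vessels, went from 74.4, 68.5 and 70.5 CPM to 400.4, 419 and 391 CPM (log2 fold change 2.50, SE 0.062, adjusted p = 6.42e-13). ADM, the vasodilator adrenomedullin, went from 8.71, 7.74 and 8.35 CPM to 51.99, 49.96 and 50.7 CPM (log2 fold change 2.62, SE 0.089, adjusted p = 1.05e-11). BHLHE40, a repressor tied to the clock and to hypoxia, went from 48.05, 40.5 and 43.6 CPM to 219, 204 and 219.9 CPM, and NDRG1, a stress-response gene, from 73.1, 76.6 and 76.4 CPM to 287, 279.5 and 285 CPM. The groups did not overlap for 34 of the 40 targets, against 69.3% of all tested genes. The histone demethylase gene KDM3A rose 3.19-fold (76.5, 78.2 and 77.4 CPM in Ctrl and 239.9, 238 and 262 CPM in CoCl2-Estrogen libraries). The members called lower included enzymes that modify collagen. PLOD1, a lysyl hydroxylase, kept 29.98% of its Ctrl level, P4HA1 53.3%, P4HA2 50.2%, and FAM162A, a mitochondrial protein, 36.8%. EPO, erythropoietin, was at 4.09, 3.00 and 3.43 CPM in Ctrl and 0.399, 0.730 and 0.480 CPM after treatment (log2 fold change -2.68, SE 0.30, adjusted p = 2.17e-06). CA9, a carbonic anhydrase used as a marker of hypoxic tumours, fell by 1.44 on the log2 scale.

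Glucose uptake and glycolysis genes were split, with 7 of 25 called higher, 12 lower and a median of -0.26. The first steps rose: the glucose transporter genes SLC2A1 and SLC2A3 by 0.40 and 0.40 on the log2 scale, and HK2, hexokinase, by 0.86 (206, 181 and 180.5 CPM in Ctrl and 335, 343 and 352 CPM in CoCl2-Estrogen libraries). PFKFB3, which makes the activator of phosphofructokinase, went from 14.9, 13.6 and 13.9 CPM to 38.4, 42.7 and 41.4 CPM (log2 fold change 1.53, SE 0.089, adjusted p = 1.91e-09). PDK1, the kinase that holds pyruvate back from mitochondria, rose by 0.49 (66.4, 65.5 and 57.4 CPM in Ctrl and 87, 92.9 and 86.3 CPM in CoCl2-Estrogen libraries). The enzymes named next, which act between glucose and lactate, were lower. GPI kept 43.1% of its Ctrl level, PFKL 30%, TPI1 63.6%, GAPDH 65.5%, PGK1 65.6%, PGAM1 55.3% and LDHA, lactate dehydrogenase, 59.2%. GYS1, glycogen synthase, fell by 1.90 and PDK3 by 1.99. ENO1, PKM, PFKP and the lactate exporter gene SLC16A3 were not called, with log2 fold changes from -0.05 to 0.13.

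The single treatments gave other orders of level. Against the same Ctrl libraries, 68.9% of 16281 tested genes were called with β-estradiol alone and 1.44% of 15872 with CoCl2 alone. Among the CoCl2 libraries replicate B stood apart, with 13592637 counts and 4.30% of them on ribosomal RNA genes, and 229 genes were called with CoCl2 alone with it and 232 of 15781 without it. These comparisons and the one with both agents share their controls. On the scale of all 12 HepG2 libraries, PFKFB3 lay at 14.6, 13.3 and 13.5 CPM in Ctrl, 118, 91.7 and 113 with CoCl2, 10.3, 10.4 and 11.96 in Estrogen and 38.4, 42.8 and 41.5 CPM in CoCl2-Estrogen libraries. PDK1 lay at 65.4, 64.3 and 55.8, 147, 173 and 144, 28.1, 28.3 and 32.5 and 86.96, 93.1 and 86.5 CPM in that order of groups. HMOX1, heme oxygenase, lay at 90.3, 73.9 and 85.98, 203, 157 and 186, 43.4, 42.3 and 39.1 and 154, 167 and 154 CPM. By mean, CoCl2 alone was highest, β-estradiol alone lowest and the combination in between for these genes, and for HMOX1 the libraries of CoCl2 and of the combination overlapped. LDHA lay at 1291, 1376 and 1244, 1652, 1822 and 1857, 459.6, 405 and 452 and 842, 727 and 796 CPM, so there the combination was under the controls. VEGFA followed another order, with 73.2, 67.4 and 68.5, 128, 134 and 148, 445, 465 and 439.9 and 400.2, 419.6 and 392.1 CPM, and was higher in Estrogen than in CoCl2 libraries.

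**Figure D2:**
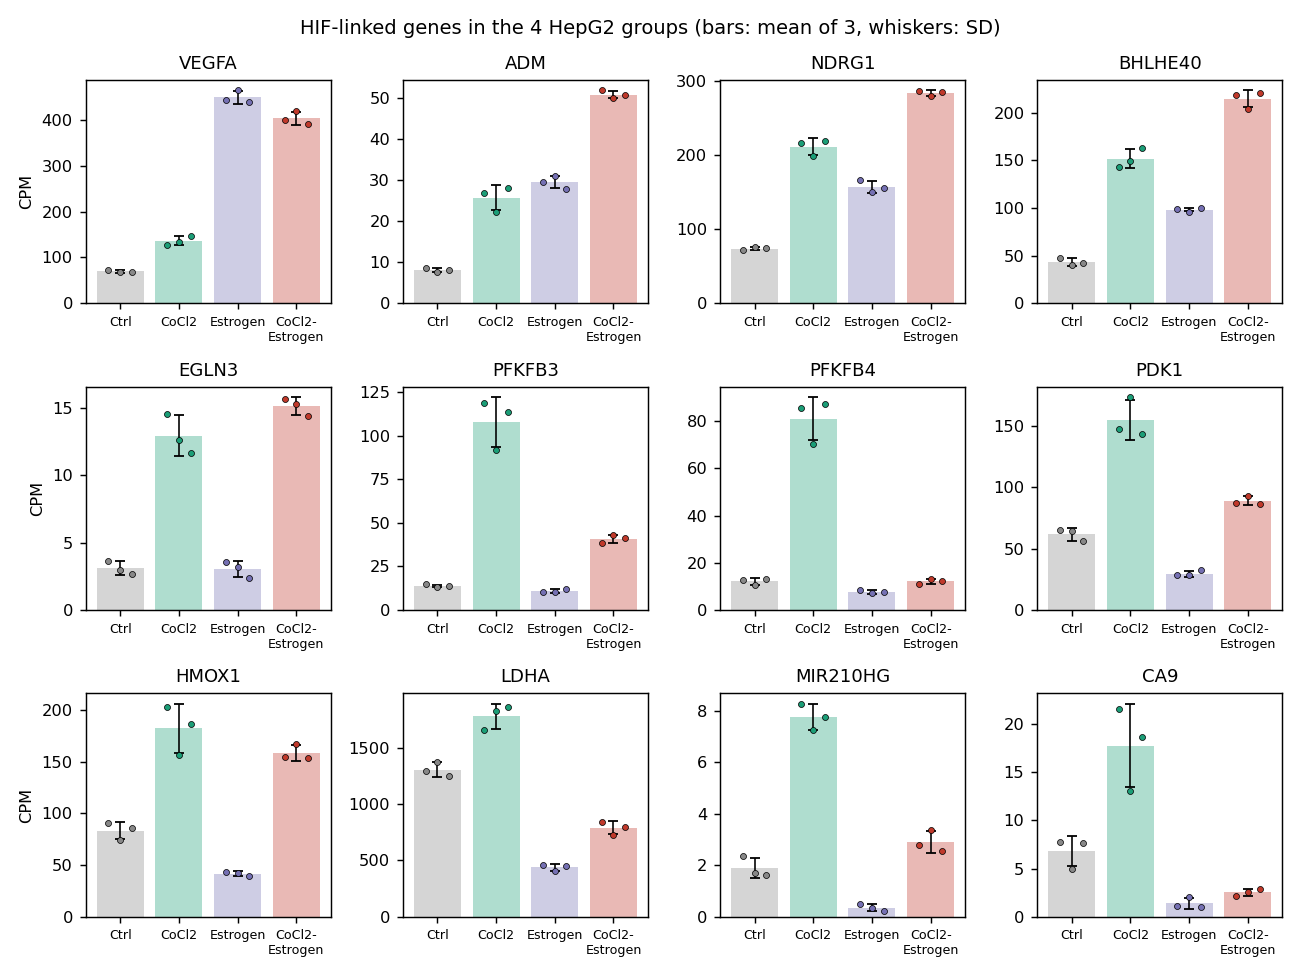
Level of 12 HIF-linked genes (CPM on 1 scale over 12 HepG2 libraries, linear vertical axes starting at 0) in Ctrl, CoCl2, Estrogen and CoCl2-Estrogen libraries; each point is a library and each bar the mean of 3, with whiskers of 1 SD. By mean, PFKFB3, PDK1, HMOX1 and MIR210HG are highest with CoCl2 alone, lowest with β-estradiol alone and in between with both, while VEGFA is highest in Estrogen and ADM, NDRG1 and BHLHE40 in CoCl2-Estrogen libraries.

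Direct tests set CoCl2-Estrogen libraries against those of each single agent, first Estrogen libraries, which by label differ in CoCl2. Between CoCl2-Estrogen and Estrogen libraries 17.0% of 15925 tested genes were called, 8.14% higher and 8.85% lower. The number of calls fell from 2706 to 1671 (718 of them higher, against 1297) without Estrogen replicate A, and to 824 higher without CoCl2-Estrogen replicate A. Of the glycolysis list 17 of 25 were called higher and 0 lower, and of the other HIF targets 20 of 40 higher and 3 lower, with median log2 differences of 0.40 and 0.46. The largest differences upward, ranked as above, were in MIR210HG, host of the hypoxia-linked miR-210 (log2 difference 2.98, SE 0.36, adjusted p = 1.90e-05), FAM13A (2.90), EGLN3 (2.31), TMCC1 (1.98) and MIR193BHG (1.96). HMOX1 was higher by 1.94 (adjusted p = 7.82e-12), PFKFB3 by 1.92 (adjusted p = 4.76e-10) and PDK1 by 1.59 (adjusted p = 3.69e-10). LDHA, lower than in Ctrl, was higher than in Estrogen libraries by 0.85 (adjusted p = 6.76e-08). VEGFA did not pass in this test (-0.15, adjusted p = 0.0686, with an adjusted p of 0.0196 by DESeq2), nor did PROS1 (-0.07, adjusted p = 0.629). The largest differences downward included CXCL2, a neutrophil chemokine (0.258, 0.946 and 0.200 CPM against 3.32, 3.37 and 3.32 CPM in Estrogen libraries), the fucosyltransferase gene FUT1 (-2.14) and the histone gene H3C7 (-1.81). Of the 40 immediate early and feedback genes 30 were lower than in Estrogen libraries and 0 higher, of the 33 p53 targets 24 and 0, and of the 42 ATF4 targets 19 and 0. Over 14 alternatives these counts of lower genes ran from 26 to 31, from 20 to 25 and from 16 to 25, and those of higher glycolysis and other HIF genes from 15 to 18 and from 19 to 22.

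Between CoCl2-Estrogen and CoCl2 libraries, which by label differ in β-estradiol, 60.9% of 16200 tested genes were called, 30.1% higher and 30.8% lower. Whether the CoCl2 cultures received its vehicle is not given, so β-estradiol and vehicle cannot be told apart. Of the 25 glycolysis genes 2 were called higher and 21 lower with a median log2 difference of -0.88, and of the 40 other HIF targets 11 higher and 21 lower with a median of -0.28. PFKFB4, a sister of PFKFB3, was lower by 2.75 (adjusted p = 4.14e-10), while against Ctrl it was not called (-0.01, SE 0.12). EGLN3 did not pass here (0.20, SE 0.12, adjusted p = 0.146), but did without CoCl2 replicate A (adjusted p = 0.049). AQP3 lay at 4.45, 3.45 and 5.10 CPM with CoCl2 and 479, 478 and 456 CPM with both agents, and KLHDC7B, a kelch-domain gene, at 0.0536, 0.294 and 0.0911 CPM and 22.4, 24.2 and 21.6 CPM. Without CoCl2 replicate B 9973 genes were called in this comparison, against 9860 with it.

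Of 5 estrogen and estrogen-related receptor genes tested, 4 were called higher and 0 lower, while their known targets changed in both directions. ESR1 was barely detected in Ctrl (0.106, 0.188 and 0.296 CPM) and at 1.93, 2.31 and 1.51 CPM in CoCl2-Estrogen libraries (log2 fold change 3.27, SE 0.45, adjusted p = 1.48e-05), which is a rise to a level that stayed low. ESR2 was not called (0.531, 0.0938 and 0.296 against 0.599, 0.304 and 0.137 CPM). GPER1, the membrane receptor, rose by 0.38 (30.8, 35.5 and 38.3 CPM in Ctrl and 48.2, 46.3 and 41.4 CPM in CoCl2-Estrogen libraries), and ESRRA, an orphan receptor of mitochondrial metabolism, by 1.11. Of 21 tested targets known mostly from breast cells, 9 were called higher and 6 lower. That is 71.4% called with a median of 0.06, near the 65.4% and -0.01 of all tested genes. AREG, the growth factor amphiregulin, went from 76.7, 63.05 and 75.7 CPM to 416, 372 and 365 CPM, and IGF1R, a growth factor receptor, from 334, 335 and 331 CPM to 678, 745 and 722 CPM. GREB1, a coactivator induced by estrogen in breast cells, fell from 191, 205 and 194 CPM to 128, 138 and 131 CPM (log2 fold change -0.57, SE 0.061, adjusted p = 1.19e-06). PDZK1, a scaffold protein, fell by 1.89 and XBP1, a factor of the unfolded protein response, by 0.69 on the log2 scale. PGR, CXCL12 and RET did not pass the count filter.

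Genes of the aryl hydrocarbon receptor, a sensor of planar foreign compounds, were set together after their values had been seen. CYP1A1, its classic target and an enzyme that also oxidizes estradiol, went from 39.1, 37.4 and 34.8 CPM to 849, 878 and 786 CPM (log2 fold change 4.50, SE 0.072, adjusted p = 1.09e-14). AHR, the receptor, went from 167, 173 and 159.9 CPM to 504, 471 and 512 CPM, and AHRR, its repressor, from 6.64, 4.88 and 4.68 CPM to 27.3, 37.4 and 34.97 CPM. TIPARP, an induced feedback enzyme, rose by 1.00 and NQO1, a quinone reductase, by 0.50, while ALDH3A1 was not called (0.13, SE 0.28). With β-estradiol alone the log2 fold changes of CYP1A1 and AHRR over Ctrl were 4.80 and 3.06, and with CoCl2 alone 1.26 and -0.13.

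Immediate early genes and the feedback genes of growth factor signalling were nearly all higher, with 39 of 40 called higher, 0 lower and a median log2 fold change of 1.87. The exception was JUND (0.09, SE 0.100). DUSP6, a phosphatase that shuts off ERK, went from 67.1, 67.5 and 65.5 CPM to 455, 416 and 438 CPM (log2 fold change 2.71, SE 0.062, adjusted p = 3.50e-13). DUSP5, its nuclear relative, went from 7.17, 6.70 and 5.62 CPM to 68.9, 68.04 and 69.9 CPM, and MAFF, a small Maf factor, from 14.4, 11.5 and 10.9 CPM to 116, 109 and 102 CPM. FOS and FOSB, components of the AP-1 factor, were under 2 CPM in Ctrl and at 9.25, 8.46 and 7.61 and 15.6, 16.8 and 14.5 CPM after treatment. EGR1, a zinc finger factor induced by growth factors, went from 22.8, 23.3 and 25.2 CPM to 158, 130.2 and 149 CPM, and SPRY4, a brake on receptor tyrosine kinases, from 95.95, 90.1 and 92.4 CPM to 333, 335 and 332 CPM. Treated and control libraries did not overlap for 39 of the 40, against 69.3% of all tested genes.

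Stress-response genes downstream of ATF4, which is translated when the ribosome initiation factor eIF2 is phosphorylated, were called higher in 31 and lower in 7 of 42, with a median of 1.08. GDF15 is a member given above. ATF3, a stress-induced factor, went from 7.86, 7.69 and 7.11 CPM to 108, 105 and 108 CPM (log2 fold change 3.82, SE 0.076, adjusted p = 1.07e-13). PPP1R15A, which restores eIF2 by dephosphorylation, went from 28.6, 25.6 and 26.2 CPM to 342, 313 and 298 CPM (log2 fold change 3.57, SE 0.077, adjusted p = 2.09e-13). TRIB3, a pseudokinase, went from 73.7, 71.2 and 83.6 CPM to 374, 393 and 348 CPM. Members that fell were PSPH and PCK2, enzymes of serine synthesis and of mitochondrial gluconeogenesis, the inhibin gene INHBE and the transfer RNA ligase gene WARS1, which kept 50.05%, 51.2%, 39.1% and 68.1% of Ctrl. The genes of folding in the endoplasmic reticulum were divided, 12 higher and 11 lower of 26. ERN1, the stress sensor IRE1α, went from 17.2, 19.03 and 18.9 CPM to 202, 210.4 and 213 CPM (log2 fold change 3.50, SE 0.071, adjusted p = 1.21e-13), and the cochaperone gene DNAJB9 from 21.03, 21.7 and 21.3 CPM to 124, 112 and 132 CPM. The lumenal foldases fell, PDIA4 from 506, 499 and 491 CPM to 150.2, 146 and 143 CPM and the chaperone gene CALR from 1304, 1375 and 1327 CPM to 573, 529.6 and 538 CPM. Autophagy and lysosome genes were higher in 19 and lower in 2 of 28. GABARAPL1 and MAP1LC3B, which coat the autophagosome, rose 6.58-fold and 3.33-fold, and SQSTM1, the cargo receptor p62, 2.40-fold.

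Genes that drive the cell cycle were lower. All 32 tested genes of G2 and mitosis were called lower, with a median of -0.73, and of 36 genes of G1 and S phase 30 were lower and 4 higher, with a median of -1.18. RRM2, which makes deoxynucleotides, fell from 295, 285 and 291 CPM to 97.9, 92.7 and 95.5 CPM (log2 fold change -1.61, SE 0.058, adjusted p = 1.78e-11). MCM5, a subunit of the replicative helicase, fell from 156, 157 and 171 CPM to 47.3, 43.4 and 43.3 CPM. TOP2A, topoisomerase II, fell from 692, 657 and 645 CPM to 302, 288 and 309.6 CPM, and the mitotic kinase gene PLK1 from 234, 239.9 and 240.2 CPM to 93.2, 76.8 and 74.2 CPM. The groups did not overlap for 31 of the 32 and 34 of the 36 genes, against 69.3% of all tested genes. The members that rose were the cyclin genes CCND1 and CCNE2, the kinase gene CDK6 and E2F3, by 0.38, 0.37, 0.75 and 0.69 on the log2 scale. The call of CCNE2 was lost without CoCl2-Estrogen replicate C (adjusted p = 0.0701) and with DESeq2 (adjusted p = 0.0675). It was also lost in edgeR on library totals alone (adjusted p = 0.0758) and with all 12 libraries in one fit (adjusted p = 0.0604). Of 14 inhibitors of the cycle 9 were higher and 4 lower. CDKN2B, the inhibitor p15, went from 10.9, 13.1 and 9.53 CPM to 81.7, 74.7 and 80.8 CPM, CDKN1A, the inhibitor p21, from 111, 108 and 123 CPM to 368, 356 and 319.5 CPM, and BTG1, an antiproliferative gene, from 18.9, 20.2 and 20.4 CPM to 129.7, 128 and 133 CPM. CDKN2C, the inhibitor p18, fell by 2.74, and BTG2 by 0.80. The p53 targets were higher in 19 and lower in 9 of 33. Among them GADD45A and PLK2, which halt damaged or stressed cells, rose 5.01-fold and 4.67-fold, and the nuclease gene AEN 3.14-fold, while FDXR and SESN1 kept 37.5% and 45.4% of Ctrl.

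Replication-dependent histone genes, whose messages are made mainly in S phase, were grouped by symbol after their values had been seen. Of 58 tested, 53 were called lower, 1 higher and 4 not called, with a median log2 fold change of -2.16. Their summed level was 4134, 4104 and 5811 CPM in Ctrl and 1743, 1385 and 1304 CPM in CoCl2-Estrogen libraries. H2BC14 went from 48.3, 45.4 and 76.2 CPM to 2.93, 1.83 and 2.81 CPM and H2AC16 from 11.7, 11.9 and 17.8 CPM to 0.666, 0.852 and 0.343 CPM. Single histone values are uncertain, since the copies are nearly alike and reads can be shared among them. H3-3B, a replacement histone that is not tied to replication, went the other way and rose by 0.74 on the log2 scale (365, 344 and 373 CPM in Ctrl and 617, 587 and 603 CPM in CoCl2-Estrogen libraries).

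Genes of ribosome making were called higher more often than lower, by small amounts. Of 46 tested ribosomal protein genes 28 were called higher and 1 lower, with a median of 0.26, and RPL3 was the gene that fell (673, 671 and 665 CPM in Ctrl and 418, 426 and 382 CPM in CoCl2-Estrogen libraries). The count of lower members was 2 without Ctrl replicate B and 3 without CoCl2-Estrogen replicate A, and that of higher members ran from 20 to 32 over 14 alternatives. The share called was 63.0%, against 65.4% of all tested genes. The groups did not overlap for 23 of the 46, against 69.3% of all tested genes. Their summed levels overlapped (14754, 14662 and 16370 CPM in Ctrl and 18592.5, 16828 and 16267.5 CPM in CoCl2-Estrogen libraries). Of 34 nucleolar genes 19 were higher and 5 lower, which is 70.6% called. RRN3, an initiation factor of RNA polymerase I, rose 2.62-fold, and MYC, a driver of growth, 3.35-fold (229, 227 and 249.7 CPM in Ctrl and 814, 784 and 765 CPM in CoCl2-Estrogen libraries). FBL, the RNA methylase fibrillarin, fell by 0.50. Nuclear genes of the respiratory chain were higher in 4 and lower in 20 of 37, with ATP5F1A, a subunit of ATP synthase, at 51.9% and NDUFB3, of complex I, at 40.5% of Ctrl. Of these 37 genes 64.9% were called, near the 65.4% of all tested genes.

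**Figure D3:**
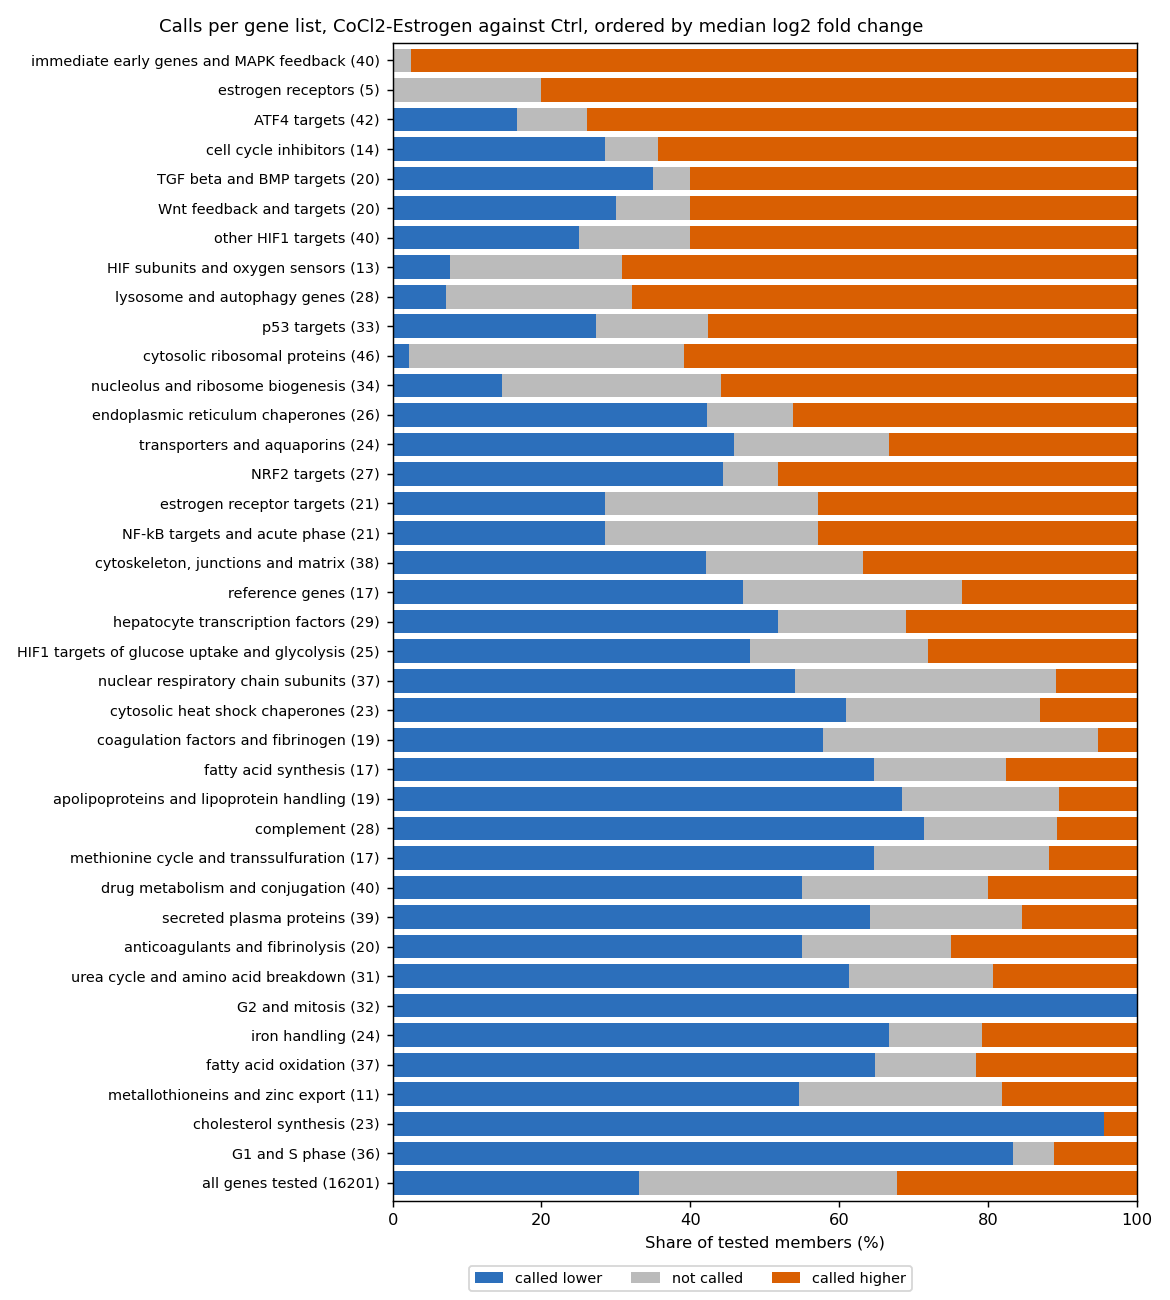
Share of the tested members of 38 gene lists called higher (orange), not called (grey) and called lower (blue) in CoCl2-Estrogen against Ctrl libraries, in order of the median log2 fold change; the number of tested members stands beside each name and the bottom bar shows all 16201 tested genes. Markers of other cell types and the histone and aryl hydrocarbon receptor genes are not plotted. Among the lists plotted, immediate early genes are at the top with 39 of 40 higher, and the G1 and S phase genes have the lowest median, with 30 of 36 lower.

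Transcription factors that define hepatocytes moved both ways, 9 higher and 15 lower of 29. CEBPA, which holds liver cells in the differentiated state, fell from 117, 104 and 135 CPM to 15.8, 14.7 and 14.1 CPM (log2 fold change -2.996, SE 0.099, adjusted p = 8.56e-12). HNF4A, the central regulator of hepatocyte genes, fell from 549.7, 563 and 546 CPM to 281, 277 and 266 CPM (log2 fold change -1.01, SE 0.053, adjusted p = 6.78e-10). NR1H4, the bile acid receptor FXR, fell from 31.3, 38.8 and 31.8 CPM to 9.92, 9.74 and 8.37 CPM, and FOXA1 from 165, 167 and 167 CPM to 98.7, 97.6 and 95.2 CPM. CEBPB, a relative of CEBPA induced in the acute phase, rose from 74.1, 74.02 and 75.6 CPM to 177, 202 and 172 CPM, and FOXA2 from 45.98, 46.7 and 52.2 CPM to 136, 129.7 and 121 CPM. The groups did not overlap for 24 of the 29, against 69.3% of all tested genes. FOXA3, PROX1 and RXRA were not called.

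Clotting genes were lower or not called, with 1 exception, F11. Of 19 tested factors, carriers and vitamin K enzymes 11 were called lower, 1 higher and 7 not called, with a median of -0.38. The share called was 63.2%, near the 65.4% of all tested genes. FGA, FGB and FGG, the 3 chains of fibrinogen, kept 18.5%, 37.6% and 18.3% of their Ctrl levels. FGA fell from 909.9, 968 and 985 CPM to 176, 176 and 178 CPM (log2 fold change -2.44, SE 0.056, adjusted p = 3.50e-13), and FGB from 335, 372 and 355 CPM to 137, 125 and 137 CPM (log2 fold change -1.41, SE 0.064, adjusted p = 1.66e-10). FGB had a lower control level and a smaller fall than FGA. Over the list the groups did not overlap for 13 of the 19, against 69.3% of all tested genes. GGCX, the carboxylase that activates vitamin K-dependent factors, kept 51.3%, F7 40.8%, F10 65.2% and F2, prothrombin, 81.1%. F11, factor XI, rose (28.9, 28.6 and 26.8 CPM in Ctrl and 44.6, 42.9 and 44.9 CPM in CoCl2-Estrogen libraries). F5 and F3, tissue factor, were not called (0.11 and 0.17). The count of higher members was 3 without Ctrl replicate B, F5 among them (adjusted p = 0.0193), and 2 without Ctrl replicate C.

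Of 20 anticoagulant and fibrinolysis genes 11 were called lower and 5 higher, with a median of -0.66. PROS1, protein S, was at 75.1, 76.7 and 65.1 CPM in Ctrl and 34.7, 31.04 and 31.4 CPM in CoCl2-Estrogen libraries (log2 fold change -1.16, SE 0.080, adjusted p = 1.12e-08), and for comparison its log2 fold change was -1.05 with β-estradiol alone and -0.03 with CoCl2 alone. SERPINC1, antithrombin, fell from 13.9, 14.2 and 14.5 CPM to 5.26, 4.81 and 4.80 CPM, SERPINA5, the protein C inhibitor, from 379.6, 394 and 404 CPM to 136, 144 and 127 CPM, and SERPINF2, the plasmin inhibitor, from 178, 184 and 194 CPM to 79.2, 76.7 and 69.5 CPM. PROC, protein C, with which protein S works, was not called (56.3, 54.8 and 64.7 CPM in Ctrl and 54.5, 58.2 and 54.03 CPM in CoCl2-Estrogen libraries, log2 fold change -0.07, SE 0.075). PLG and PLAT, plasminogen and its tissue activator, kept 59.9% and 38.3%. Those that rose included PLAUR, S100A10, A2M and TFPI. The rise of TFPI, tissue factor pathway inhibitor, was small (0.20 on the log2 scale), and its call was lost without any 1 of Ctrl replicates A and C and CoCl2-Estrogen replicates A and C (adjusted p = 0.0629 to 0.100). It was also lost in edgeR on library totals alone (adjusted p = 0.211) and with a replicate block (adjusted p = 0.0603).

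Complement genes were lower in 20 and higher in 3 of 28. CFI, a protease that inactivates C3b, kept 31.8% of its Ctrl level, CFB 38.1%, C4BPA 34.2% and VTN, vitronectin, 52.2%. CD55, a membrane protein that protects cells from complement, went from 13.9, 11.6 and 11.1 CPM to 110.1, 99.6 and 109.8 CPM (log2 fold change 3.12, SE 0.088, adjusted p = 2.07e-12). Other secreted plasma proteins were lower in 25 and higher in 6 of 39. ALB kept 43.3%, TF, transferrin, 44.1%, and SERPINA7, the thyroxine carrier, 22.1%. IGFBP3 went from 1.27, 1.17 and 0.711 CPM to 34.01, 32.3 and 30.03 CPM, and AMBP, a protease inhibitor precursor, rose by 0.33.

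**Figure D4:**
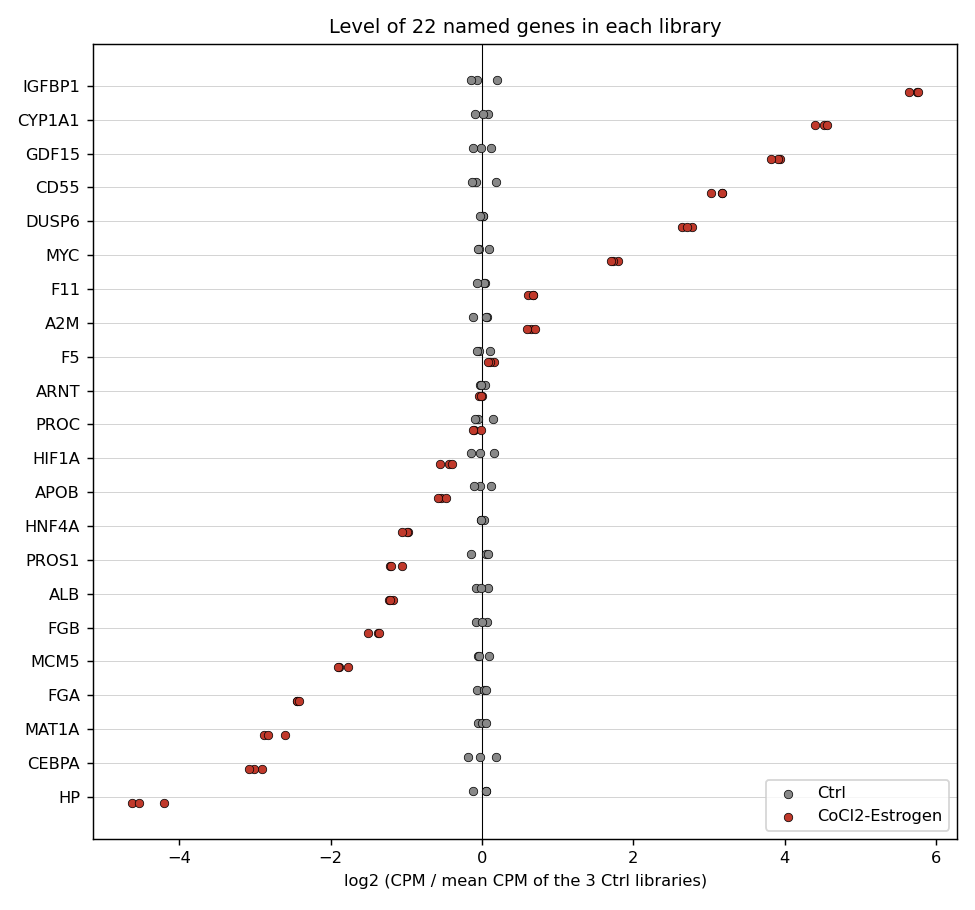
Level of each of 22 named genes in each library, as log2 of its CPM over the mean of the 3 Ctrl libraries (horizontal axis); grey circles are Ctrl and red circles CoCl2-Estrogen libraries, 3 of each per gene. The groups of PROC, ARNT and F5 overlap, and those of the other 19 genes do not. The genes were chosen with earlier results of these data known, and 69.3% of all tested genes had groups that did not overlap.

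Lipid genes were mostly lower. Of 23 tested genes of cholesterol synthesis and its control, 22 were called lower and 1 higher, with a median of -0.97. TM7SF2, a sterol reductase, fell from 24.7, 24.1 and 27 CPM to 3.53, 3.77 and 3.22 CPM (log2 fold change -2.84, SE 0.12, adjusted p = 7.79e-11). INSIG1 is listed at 0 in every library. Apolipoproteins and lipoprotein genes were lower in 13 and higher in 2 of 19, with APOC3 at 16.9%, APOH at 34.5% and APOA1 at 50.3% of Ctrl. Fatty acid synthesis genes were lower in 11 of 17, among them the desaturase genes FADS1 and FADS2 at 37.4% and 19.5%. Fatty acid oxidation genes were lower in 24 and higher in 8 of 37. CAT, catalase, fell from 125, 139 and 125 CPM to 17.8, 20.8 and 20.5 CPM, and EHHADH, a peroxisomal enzyme, from 70.8, 70.9 and 61.6 CPM to 8.99, 6.88 and 9.94 CPM. ACSL5 and ACSL1, which activate fatty acids, rose 5.40-fold and 3.17-fold, and PPARGC1A, a coactivator of mitochondrial genes, 3.05-fold.

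Amino acid breakdown and conjugation followed the same direction. Urea cycle and amino acid genes were lower in 19 and higher in 6 of 31, with BCKDHB, of branched-chain breakdown, at 17.1% of Ctrl, while ARG2, a mitochondrial arginase, rose 4.70-fold. In the methionine cycle 11 of 17 were lower and 2 higher (1 without Ctrl replicate C or CoCl2-Estrogen replicate A or C), and MAT1A, which makes S-adenosylmethionine in liver, fell from 113, 116 and 121 CPM to 19.3, 15.8 and 16.5 CPM (log2 fold change -2.76, SE 0.081, adjusted p = 3.05e-12). GAMT, the last step of creatine synthesis, kept 11.98%. Drug-metabolism genes were lower in 22 and higher in 8 of 40. UGT2B10, SULT1A1 and SULT2A1 kept 10.8%, 15.8% and 18.8%, where the first pair have close paralogs and are uncertain. UGT1A1, which conjugates bilirubin and estradiol, was at 0.584, 0.375 and 0.355 CPM in Ctrl and 10.8, 8.58 and 9.80 CPM after treatment, and is uncertain because the UGT1A genes share their last exons. Among transporters 8 were higher and 11 lower of 24, with ABCB1, the drug efflux pump, going from 88.1, 88.9 and 84.97 CPM to 489.6, 467 and 513 CPM and ABCC6 from 103, 95.2 and 108 CPM to 21.4, 25.9 and 21.6 CPM.

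Iron, metal and heat shock genes were mainly lower. Of 24 iron genes 16 were called lower and 5 higher. ID1 and ID3, targets of the bone morphogenetic protein signal that also controls HAMP, fell from 222, 218 and 236 CPM to 31.6, 29.1 and 27.6 CPM and from 66, 58.5 and 72.4 CPM to 12.4, 11.4 and 10.4 CPM. HMOX1 rose 1.86-fold, and TFRC, the transferrin receptor, was not called (-0.11, SE 0.058), though it passed without CoCl2-Estrogen replicate C (adjusted p = 0.0426). Of 11 metallothionein and zinc transporter genes 6 were lower and 2 higher (4 higher without Ctrl replicate C). MT1G and MT1X, whose family members are near copies and hence uncertain, kept 7.72% and 16.8%, and the metal transporter genes SLC30A10 and SLC30A1 changed by -2.36 and 0.87 on the log2 scale. Heat shock chaperone genes were lower in 14 and higher in 3 of 23. HSPA8, the constitutive HSP70, fell from 1724, 1846 and 1660.4 CPM to 709, 601 and 666 CPM, HSP90AA1 from 1983, 1986 and 1972 CPM to 969, 909.6 and 982 CPM, and HSPB1 kept 26.9%. Targets of NRF2, the factor of oxidative stress, were divided, 13 higher and 12 lower of 27. GCLC, the first step of glutathione synthesis, rose from 149.8, 157 and 138 CPM to 444, 447 and 480.5 CPM.

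Signalling targets and the cytoskeleton showed both directions. Wnt feedback and target genes were higher in 12 and lower in 6 of 20, among them NKD1, a brake on Wnt, from 984, 969 and 976 CPM to 2251, 2363 and 2308 CPM, and the secreted inhibitor gene DKK1, which kept 37.6%. Targets of TGF-β and BMP were higher in 12 and lower in 7 of 20, where CCN2 and TGFB1 rose 2.21-fold and 2.74-fold. Targets of NF-κB and acute phase genes were higher in 9 and lower in 6 of 21, which is 71.4% called against 65.4% of all tested genes. CCL20, a chemokine, rose from 17.7, 13.9 and 16.8 CPM to 96.98, 74.1 and 92.3 CPM, while SAA4, a serum amyloid, kept 24.3%. Of 38 genes of cytoskeleton, junctions and matrix 14 were higher and 16 lower, with a median of -0.06 against -0.01 over all tested genes. ITGA2, a collagen-binding integrin, rose from 286, 271 and 241 CPM to 1004, 1009 and 1058 CPM, and CDH1, E-cadherin, fell from 77.6, 72.8 and 75.7 CPM to 15.6, 17.9 and 16.9 CPM. Common reference genes were not exempt, with 8 lower, 4 higher and 5 not called of 17, which is 70.6% called. ACTB, TUBB and GAPDH fell as above, while EEF2 rose by 0.47 on the log2 scale.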

How the data were processed

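RNA was extracted from HepG2 cells after 4 h, and libraries were made with an Illumina stranded total RNA kit that removes ribosomal RNA. The submitters' processing notes name STAR 2.7.8a, Bowtie2 2.2.5 and Partek and the builds hg38 and mm10, with no roles. The authors deposited 1 table of estimated counts per gene symbol for the 12 HepG2 libraries, and 23.8% of its values were not whole, so these expected counts were rounded to whole numbers. The study tested with DESeq2. A gene was kept where any library compared had a count above 5, scaled by TMM and tested with edgeR 4.0.16 (R 4.3.3, limma 3.58.1) by glmQLFit and glmQLFTest, with Benjamini-Hochberg adjustment and a threshold of 0.05. CPM values are TMM-scaled. Intervals and floors of 3 counts cover counting error alone.

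Named genes were the study's genes (PROS1, HIF1A, estrogen receptors, GAPDH), the 12 largest rises and falls at a mean of 1 CPM or more without overlap, up to 4 members per list and direction, the 8 greatest gains and losses of CPM, the 5 largest differences from each single treatment, genes at 3 counts or fewer in a group, and symbol families of at least 30 genes. Some members that were not called are given too, and some genes are not reported here. The members and lists were chosen with earlier results of these data known, and the histone, aryl hydrocarbon receptor and clock genes after their values were seen. MRC1 and LSP1 are among the 12. No list's median changed when called genes at 3 counts or fewer were set to their bound, a check that says little. At most 4 genes a list were reset, and resetting kept their direction. Alternatives were DESeq2 1.42.0, other scalings and filters, 1 fit over all 12 libraries, a replicate block and leaving out each library. CoCl2 against Ctrl without CoCl2 replicate B was added after seeing the data. Mouse livers, promoters and gene positions were not analysed here, since no human genome was used.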

Additional observations from a re-analysis of the deposited data

How the results depend on the processing

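Among the named genes, no call against Ctrl changed direction under any alternative run, and this was not counted for the other genes. Calls against Ctrl numbered 10598, 9925 with DESeq2, 10657 on library totals alone, 10788 with no filter and 9820 to 10351 with a library left out (4849 to 5130 higher, 4971 to 5221 lower). Library totals alone put 43.0% of calls on the higher side against 49.3%. Against CoCl2 libraries the range without 1 library was 8938 to 9973 (4412 to 4938 higher, 4502 to 5035 lower). Against Estrogen libraries it was 1671 to 2493 (718 to 1200 higher, 953 to 1293 lower), and with all 12 libraries in one fit 855 genes were higher against 1297, for which the cause was not tested. Of the repeated tests of named genes, 19 lost and 8 gained a call against Ctrl and 3583 stayed on their side of the threshold, while 128 lost and 47 gained one against Estrogen and 21 lost and 20 gained one against CoCl2 libraries. Of the list counts, 38 moved by over 1.5 times under some alternative against Estrogen, 9 against CoCl2 and 9 against Ctrl libraries, none of them reported above 15. Depth limits the genes under 1 CPM most, where a few counts decide the fold.

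Libraries of the same letter did not deviate together in Ctrl and CoCl2-Estrogen (r across 13264 genes of -0.18, -0.31 and -0.22 for A, B and C). For Estrogen these values were -0.04, 0.26 and 0.11 and for CoCl2 -0.29, -0.24 and 0.00, so no comparison had all its pairs above 0.1 and the letters were not taken as pairs. Of the Estrogen libraries B correlated best with its own letter, and A and C did not. A replicate block gave 9902 calls against Ctrl, 3791 against Estrogen (2706 without it) and 9367 against CoCl2 libraries, within 1.5 times of each reported count.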

Other observations

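Genes grouped by the letters at the start of their symbols gave further contrasts, as a description with no test, against a median log2 fold change of -0.01 over all tested genes. Of all tested genes 32.3% were called higher and 33.2% lower. Zinc finger genes of the ZNF family, most of them DNA-binding repressors, were higher in 245 and lower in 83 of 502, with a median of 0.32. Genes of the ZBTB family, which join a BTB domain to zinc fingers, were higher in 25 and lower in 3 of 43, and ZBTB38, which binds methylated DNA, went from 206, 235 and 191 CPM to 765, 766 and 770.4 CPM. The GPR family of receptors had 16 higher and 4 lower of 41. GPRC5A, a receptor of epithelial cells that this grouping does not count among them, went from 14.4, 10.3 and 13.2 CPM to 123, 135 and 128 CPM. At the other end were kinesins, with 7 higher and 19 lower of 36, among them the mitotic motor genes KIF20A (87.2, 85.6 and 80.8 CPM in Ctrl and 33.5, 28.4 and 28.7 CPM in CoCl2-Estrogen libraries) and KIF11 (124, 131 and 116 CPM in Ctrl and 57.8, 50.4 and 56.4 CPM in CoCl2-Estrogen libraries). The TTC family, several of whose members serve cilia, had 8 higher and 19 lower of 40. Mitochondrial ribosome genes of the MRPL family had 4 higher and 27 lower of 53, while the RPL family, which holds cytosolic ribosomal protein genes and their pseudogene copies, had 35 higher and 3 lower of 66.

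Clock genes were picked after their values had been seen. NR1D1 and NR1D2, the repressors REV-ERBα and REV-ERBβ, went from 12.2, 15.4 and 15.4 CPM to 80.3, 67.4 and 61.2 CPM and from 26.7, 26.2 and 21.2 CPM to 93.9, 86.5 and 98.3 CPM. RORA, an activator that binds the same DNA element, went from 18.1, 21 and 18.1 CPM to 97.5, 100.5 and 104 CPM, and CRY1, a repressor of the clock, from 24.2, 26.4 and 21.4 CPM to 60.8, 62.5 and 66.6 CPM. The output factor genes DBP and HLF fell by 1.59 and 0.85 on the log2 scale. CLOCK and ARNTL, the central activators, were not called (log2 fold changes 0.02, SE 0.083, and 0.13, SE 0.13).

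Among noncoding genes, 12 of 24 hosts of small nucleolar RNAs were higher and 5 lower, with a median of 0.49, and GAS5, a host named by another symbol, went from 10.4, 8.53 and 11.1 CPM to 30.5, 35.1 and 33.05 CPM. Hosts of miRNAs had 9 higher and 6 lower of 26, and MIR22HG went from 9.77, 8.63 and 8.47 CPM to 45.5, 47.5 and 45.5 CPM. CCAT1, a noncoding gene near MYC, went from 42.3, 47.3 and 42.99 CPM to 449.7, 421 and 448 CPM, and PVT1, its neighbour, from 5.26, 6.42 and 5.27 CPM to 18.6, 23.1 and 21.1 CPM. Long intergenic genes named LINC had 69 higher and 52 lower of 263, and antisense genes 111 and 85 of 570, both with a median near that of all genes. TXNIP, which binds thioredoxin and limits glucose uptake, went from 90.9, 84.1 and 91.1 CPM to 367, 388 and 393 CPM. HBA1, a globin gene, varied within both groups (16.9, 106 and 13.3 CPM in Ctrl and 63.4, 5.42 and 17 CPM in CoCl2-Estrogen libraries) and was not called, but without CoCl2-Estrogen replicate A it was called lower (log2 fold change -2.06, adjusted p = 0.0424).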
